A study of Danio rerio with 6 samples.

Results

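The genes described here drive DNA replication and cell division, and they were followed in the tail end of zebrafish (Danio rerio) embryos that had received a morpholino against sall4. They are 43 genes chosen by name, which took up 44 of the 32520 gene rows because the name rrm2 stands on 2 rows. They fall into 19 rows for replication, 12 for cyclins, cyclin-dependent kinases and a phosphatase that activates these kinases, and 13 for mitosis. RNA-seq was carried out on the tissue posterior to the last somite at 16 hours post fertilisation. The sall4 morphant group held 3 libraries from embryos injected with the sall4 morpholino, an antisense oligomer that transiently blocks its target. The control group held 3 libraries, of which control 1 received a scrambled morpholino and controls 2 and 3 were not injected. No allele or other agent is named for either group, and the labels do not say how many embryos were pooled or whether libraries came from separate clutches. P-values therefore measure only how these 6 samples spread, and that spread may be technical.

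Before a cell copies its DNA, the origin recognition complex, cdc6 and cdt1 load the MCM helicase onto origins, and geminin holds cdt1 in check until the cell has divided. Cyclin-dependent kinases bound to D-type and E-type cyclins carry the cell into DNA synthesis, and those bound to A-type and B-type cyclins carry it into mitosis. Mitosis then relies on the kinases plk1, aurka and aurkb, on spindle motors such as kif11, and on a checkpoint that holds back cdc20 until chromosomes are attached. Many of these proteins are made from transcripts that rise and fall with the cycle. In a bulk sample, fewer dividing cells and less RNA per dividing cell cannot be told apart.

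Total counts per library ran from 18626513 to 25144393 in morphants and from 18687559 to 42423495 in controls. Levels are CPM, counts scaled to a common library size after TMM, a normalisation that assumes most genes do not change, unless FPKM, a level per gene length, is named. The target transcript, sall4, had 974.5, 1337 and 1390 CPM in morphants 1, 2 and 3, against 1110, 1312 and 1347 CPM in controls 1, 2 and 3, which does not check a block of translation. Of 11 rows marking tailbud and presomitic mesoderm, 9 were expressed well enough to be tested, with a summed level of 5112 to 13180 CPM in morphants and 5925 to 8276 CPM in controls. A large part was msgn1, chosen after its values were seen, with 8006, 2141 and 4301 CPM in morphants and 2601, 4251 and 3695 CPM in controls. The sum also hides directions, with 6 fold changes above 0 and 3 below. The rows of wnt8a lay under 1 CPM, and 1 of them was at 0 in every library. Among markers of other cells, the 5 neuronal rows summed to 78.2 to 132.6 CPM in morphants and 180.2 to 297.4 CPM in controls, and the 6 blood rows to 385.3 to 1323 CPM in morphants and 188.9 to 401.0 CPM in controls, with none of the 11 at 0. Control 1 had 9.22 and 13.3 CPM of the blood rows hbbe1.1 and hbae1.1, below both other controls. Muscle markers summed to 166.0 to 373.6 CPM in morphants and 195.2 to 271.8 CPM in controls, with 2 of 7 rows under 1 CPM in every library. That sum hides opposite directions: every morphant lay above all controls for actc1b and below all controls for desma. The genes hbbe1.1, hbae1.1, actc1b and desma were named after their values were seen. Epidermal markers summed to 4872 to 12320 CPM in morphants and 9584 to 14210 CPM in controls. Genes listed as anterior markers summed to 17.2 to 38.2 CPM in morphants and 7.29 to 24.1 CPM in controls. Of these, pax2a alone had 25.9, 13.2 and 13.9 CPM in morphants and 4.88, 16.4 and 20.4 CPM in controls. None was shown to be confined to tissue outside the dissection, so the sum does not measure such tissue. The part of all these marked cells in the results below was not tested. Morphants 1 and 2 stood apart from the rest and in opposite directions: over the 17803 tested genes, 32.1% were highest in morphant 1 and 30.9% in morphant 2.

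No member differed between morphants and controls past the threshold, a Benjamini-Hochberg (BH) adjusted p under 0.05 in edgeR's quasi-likelihood test over all 17803 genes. All 44 rows passed the filter on low counts, and 0 of them were called, against 0.0281% of all tested genes. The unadjusted p was under 0.05 for 2 rows, mcm7 and ccnd2a, which is 4.55% of the members beside 9.66% of all tested genes. DESeq2 also called 0 members, against 1.56% of the genes it gave an adjusted p, and its smallest adjusted p for a member was 0.41, for mki67. The standard errors of the edgeR fold changes ran from 0.23 to 0.91 on the log2 scale, and a p that misses the threshold does not show that a gene did not differ. The median log2 fold change, morphant minus control, was 0.18 for replication, 0.13 for cyclins and kinases and 0.49 for mitosis, beside 0.12 for all tested genes. These medians depended on single libraries. Without morphant 2 they were −0.55, 0.18 and −0.04, beside −0.04 for all genes, and without morphant 1 they were 0.05, −0.04 and 0.23, beside 0.05.

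**Figure D1:**
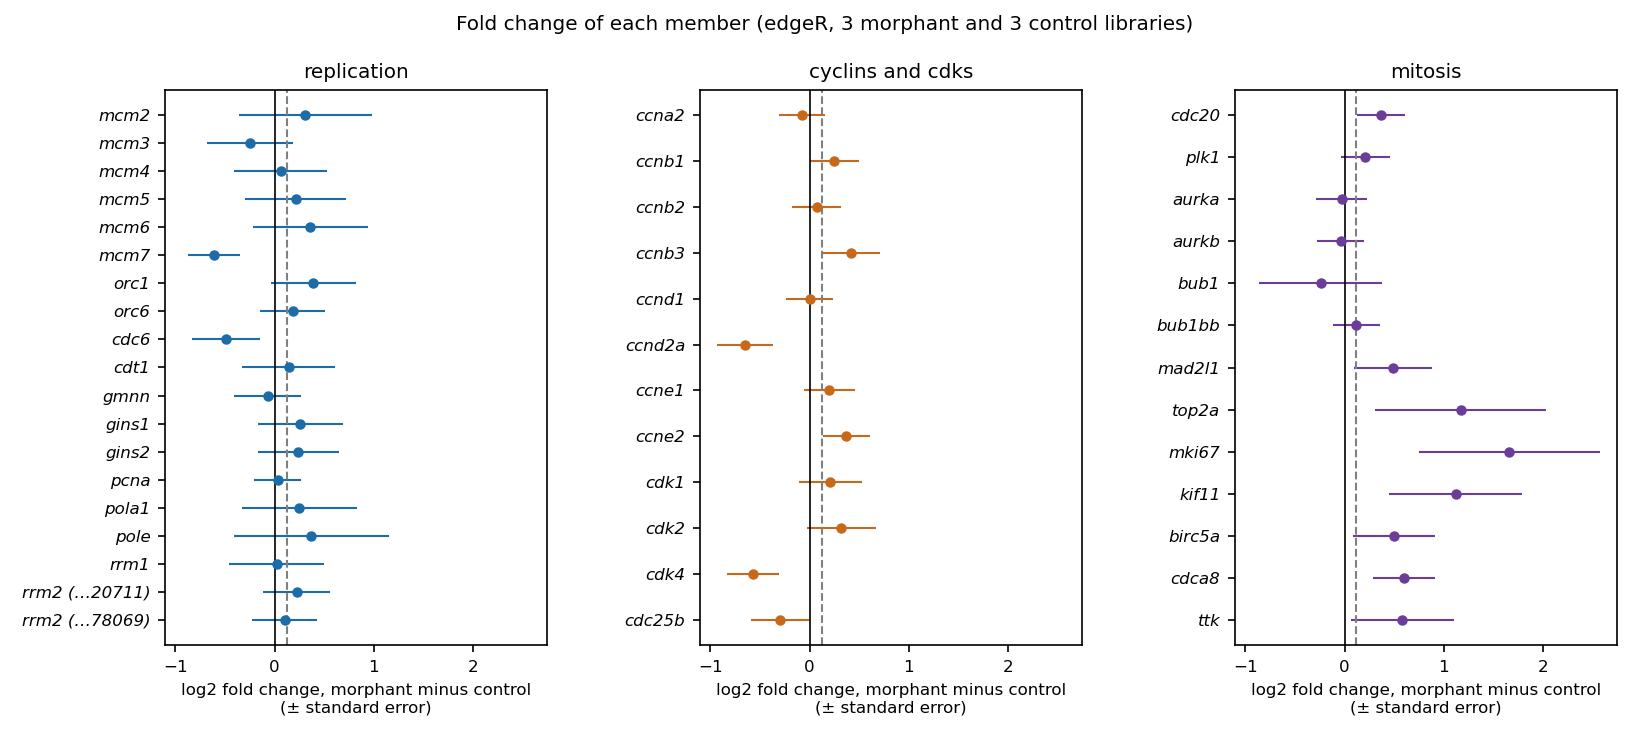
Log2 fold change, morphant minus control, of each member by edgeR (points) with its standard error (bars), from 3 morphant and 3 control libraries, in the 3 role groups. The dashed line marks the median of all tested genes, 0.12. Values ran from −0.65 for ccnd2a to 1.66 for mki67, and the widest bars belong to mki67, top2a and pole.

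In CPM, the members differed from one another in their order among the libraries. Of the 44 rows, 15 were highest of all 6 libraries in morphant 2 and lowest in morphant 1, which is 34.1% of the members beside 18.1% of all tested genes. A further 11 were highest in morphant 1 and lowest in morphant 2, 25% beside 17.9%. The first set held mcm2, mcm3, mcm4, mcm5, mcm6, orc1, cdt1, pola1, pole, rrm1, bub1, top2a, mki67, kif11 and ttk. The second held orc6, gmnn, gins1, gins2, both rows of rrm2, ccnb2, cdk1, cdk2, mad2l1 and birc5a. These orders were read on TMM-scaled CPM, and some rows lost theirs on other scales. On library sizes without TMM, ccnb2 was highest in control 2 (34.0) and lowest in morphant 3 (28.1). There gmnn had 38.4 in morphant 1, below 43.6 in control 2. How many rows kept their order without TMM was not counted. The remaining 18 rows, which took neither order, include most cyclins, pcna, mcm7 and the kinases plk1, aurka and aurkb.

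**Figure D2:**
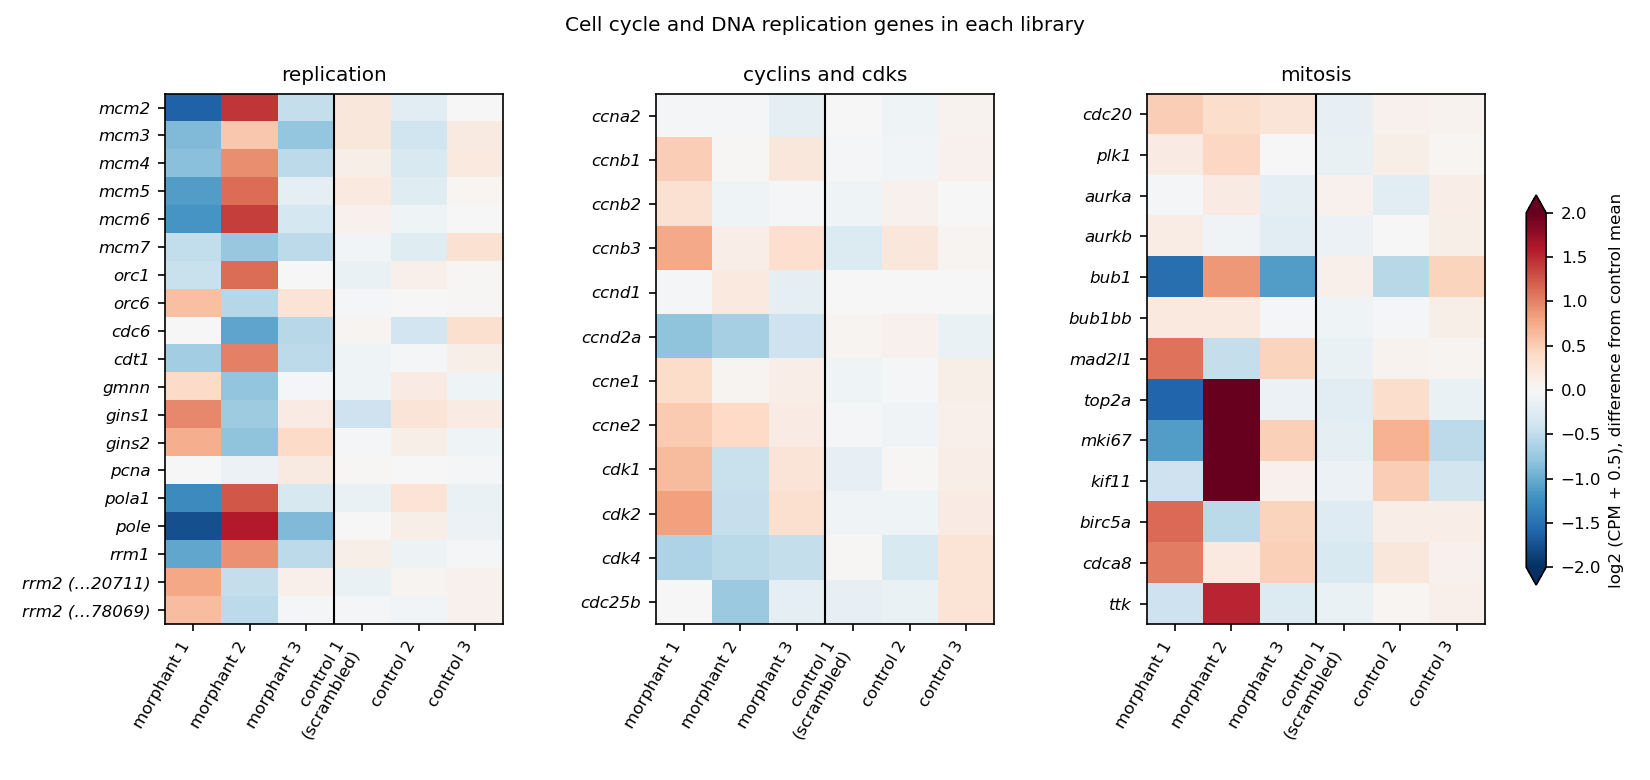
Difference of each member from the mean of the controls, on the log2(CPM + 0.5) scale, in every library, with morphants left of the vertical line and controls right of it. Red is higher and blue lower, and the colours stop at 2 in either direction. The 15 rows highest in morphant 2 and lowest in morphant 1 lie at 0.54 to 3.04 in morphant 2 and at −1.76 to −0.41 in morphant 1, while others such as mcm7 and cdc20 share a direction in both.

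The helicase genes mcm2 to mcm6, whose products form a ring with that of mcm7, all took the first order. The mcm2 transcript (ENSDARG00000102798) had 19.8, 167.6 and 44.0 CPM in morphants 1, 2 and 3, against 72.7, 52.8 and 61.2 CPM in controls 1, 2 and 3. Morphant 2 lay above every control and both other morphants below every control. The log2 fold change of 0.31 (SE 0.67, edgeR BH-adjusted p = 0.86) covers that split, and it was −0.98 without morphant 2 (adjusted p = 0.076). For mcm6 (ENSDARG00000057683) the values were 31.1, 186.6 and 55.4 CPM in morphants and 75.4, 66.5 and 70.7 CPM in controls, with the same arrangement (log2 fold change 0.36, SE 0.58, adjusted p = 0.82). Those of mcm5 were 33.8, 158.8 and 63.8 CPM in morphants and 84.5, 61.9 and 75.5 CPM in controls, where morphant 3 lay among the controls. In morphants mcm4 had 46.0, 157.7 and 57.5 CPM and in controls 88.9, 66.8 and 94.2 CPM. Lastly mcm3 had 50.8, 137.7 and 54.9 CPM in morphants and 110.2, 71.2 and 107.2 CPM in controls. All 5 genes were thus lowest in morphant 1, and none of their fold changes, from −0.25 to 0.36, passed.

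The sixth subunit, mcm7 (ENSDARG00000101180), did not follow them. It had 345.3, 285.3 and 335.4 CPM in morphants, against 464.3, 408.9 and 598.4 CPM in controls. Every morphant lay below every control, a log2 fold change of −0.61 (SE 0.26, edgeR BH-adjusted p = 0.51, DESeq2 adjusted p = 0.46). The groups stayed apart without TMM. They did so on FPKM too, but for a given gene FPKM differs from CPM only by a scale per library. With the length trend removed the fold change was −0.62, and it ran from −0.73 to −0.44 over 18 alternatives. Per gene length, mcm7 stood at 160.5, 129.3 and 158.1 FPKM in morphants and 218.2, 188.1 and 277.2 FPKM in controls. The median of mcm2 to mcm6 was 14.0, 55.3 and 19.7 FPKM in morphants and 32.3, 23.8 and 31.2 FPKM in controls. The ratio of mcm7 to mcm2 in FPKM was therefore 42.5, 4.15 and 18.6 in morphants, beside 15.6 to 23.8 in controls, so that morphants 1 and 2 bracketed all other libraries.

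**Figure D3:**
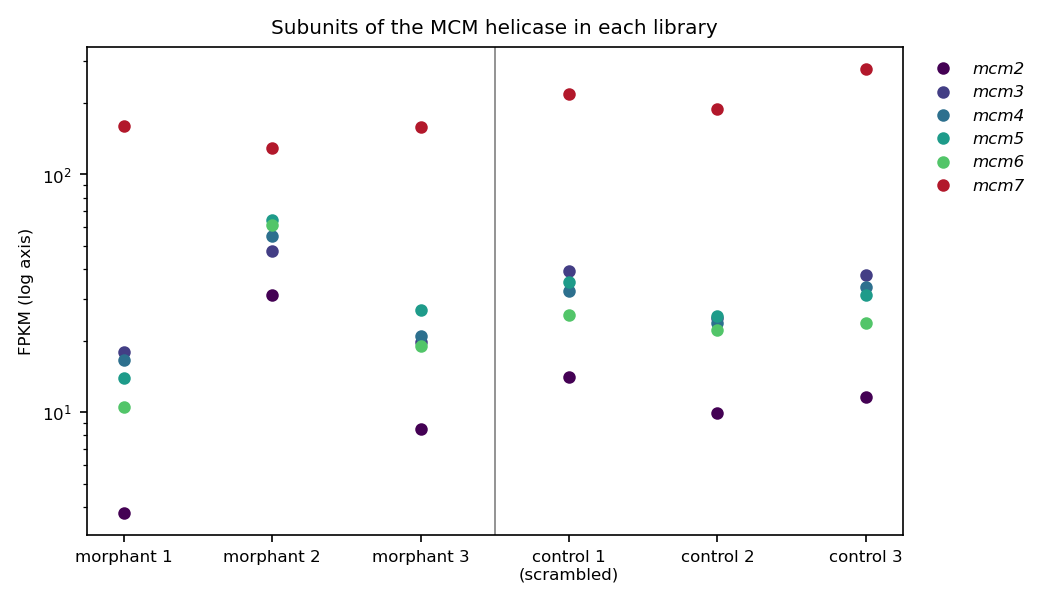
FPKM (log axis) of the 6 genes encoding the MCM helicase in each library, morphants left of the line and controls right of it. The genes mcm2 to mcm6 lie closest to mcm7 in morphant 2 and farthest from it in morphant 1, and mcm7 is below all controls in every morphant.

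Genes that act with the helicase at origins were split between both orders. The licensing factor cdt1 (ENSDARG00000051854) had 16.1, 53.7 and 18.2 CPM in morphants and 25.1, 25.8 and 28.8 CPM in controls. Its inhibitor geminin, gmnn (ENSDARG00000035957), had 47.0, 20.4 and 35.3 CPM in morphants and 33.8, 40.1 and 33.7 CPM in controls. The ratio of cdt1 to gmnn in FPKM was 0.350, 2.68 and 0.524 in morphants and 0.657 to 0.871 in controls, so it lay outside the controls in all morphants but in different directions. The fold changes of these genes were small beside their error, 0.14 for cdt1 (SE 0.47, adjusted p = 0.91) and −0.07 for gmnn (SE 0.34, adjusted p = 0.95). The largest subunit of the origin recognition complex, orc1, had 8.28, 25.2 and 11.3 CPM in morphants and 10.4, 12.2 and 11.7 CPM in controls. The smallest, orc6, had 49.0, 21.6 and 39.3 CPM in morphants and 31.5, 32.5 and 32.7 CPM in controls, so subunits of this complex lay on opposite sides in morphant 2. The loader cdc6 was lowest in morphant 2, with 112.4, 53.3 and 76.1 CPM in morphants and 116.2, 85.5 and 139.1 CPM in controls (log2 fold change −0.49, SE 0.34, adjusted p = 0.63). Of the helicase's GINS partners, gins1 had 59.5, 18.4 and 34.1 CPM in morphants and 22.7, 36.5 and 34.0 CPM in controls. The other, gins2, had 20.9, 6.93 and 16.4 CPM in morphants and 12.1, 13.6 and 11.8 CPM in controls, again highest in morphant 1.

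Among genes of DNA synthesis itself, pcna, which encodes the sliding clamp of the polymerases, varied least in CPM. It had 388.9, 358.2 and 436.0 CPM in morphants and 390.5, 386.2 and 381.0 CPM in controls, which came to 0.03 on the log2 scale (SE 0.24, adjusted p = 0.96). The catalytic subunits of the polymerases took the order of mcm2. The gene of polymerase epsilon, pole (ENSDARG00000058533), had 2.89, 33.7 and 5.71 CPM in morphants and 10.9, 12 and 10.0 CPM in controls (log2 fold change 0.37, SE 0.78, adjusted p = 0.86). Without morphant 2 it passed the threshold as lower, at −1.35 (adjusted p = 0.046), as did 4.37% of all genes tested in that comparison. That of polymerase alpha, pola1, had 8.41, 50.2 and 16.7 CPM in morphants and 19.1, 25.5 and 19.1 CPM in controls. The subunits of ribonucleotide reductase, the enzyme that makes deoxynucleotides, took opposite orders. The large subunit gene rrm1 had 47.3, 183.5 and 67.9 CPM in morphants and 106.4, 91.2 and 96.0 CPM in controls. The small subunit rrm2 had on its higher row (ENSDARG00000078069) 1333, 608.3 and 864.0 CPM in morphants and 851.0, 846.4 and 926.4 CPM in controls. Its lower row (ENSDARG00000020711) had 996.5, 421.0 and 624.3 CPM in morphants and 526.3, 605.2 and 618.7 CPM in controls. Reads may be divided between these rows of the same name, so each value is uncertain, but both took the same order. Their fold changes were 0.10 and 0.22 (SE 0.33 and 0.34), and that of rrm1 was 0.02 (SE 0.48). Without morphant 2 that of rrm1 was −0.78, and without morphant 1 those of the rrm2 rows were −0.24 and −0.15.

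In CPM, the cyclins and kinases varied least from library to library. The median SD of log2(CPM + 0.5) within a group was 0.20 over morphants and 0.11 over controls for these 12 genes. It was 0.80 over morphants and 0.13 over controls for replication, and 0.79 over morphants and 0.20 over controls for mitosis. For all tested genes it was 0.51 over morphants and 0.23 over controls. Morphants 1 and 2 differed by more than 2-fold in 2 of the 12, cdk1 and cdk2, against 17 of 19 replication rows, 7 of 13 mitotic rows and 44.8% of all tested genes. Spreads with the length trend of each library removed are not given, so this ranking holds for CPM as scaled here. With that trend removed the log2 fold changes of ccnd1, ccnb3 and cdk1 were 0.18, 0.59 and 0.07, against 0.0, 0.42 and 0.21 before. D-type cyclins pair with cdk4, and of these members ccnd2a and cdk4 lay lower in every morphant while ccnd1 did not. The ccnd2a transcript (ENSDARG00000051748) had 7.88, 8.77 and 10.5 CPM in morphants, against 14.6, 15.0 and 12.9 CPM in controls (log2 fold change −0.65, SE 0.28, edgeR BH-adjusted p = 0.51). For cdk4 (ENSDARG00000087937) there were 48.5, 51.5 and 53.5 CPM in morphants, against 76.2, 61.0 and 90.8 CPM in controls (−0.57, SE 0.26, adjusted p = 0.53). Over 18 alternatives the fold change stayed below 0 for both, from −0.81 to −0.55 and from −0.90 to −0.43, and the lowest adjusted p was 0.085 and 0.057. With the length trend removed it was −0.71 for ccnd2a and −0.63 for cdk4, and whether their groups overlapped then is not given. The cyclin with the highest FPKM of the D type, ccnd1 (ENSDARG00000101637), had 501.1, 591.1 and 449.6 CPM in morphants and 514.0, 515.4 and 510.3 CPM in controls, so the morphants spread to both sides of the controls.

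E-type cyclins partner cdk2 at entry into DNA synthesis. The ccne2 transcript (ENSDARG00000098529) had 65.3, 60.1 and 50.9 CPM in morphants, against 44.4, 43.2 and 48.4 CPM in controls. All morphants were above all controls (log2 fold change 0.37, SE 0.24, edgeR BH-adjusted p = 0.62). With the length trend removed the fold change was 0.51, and whether the groups overlapped then is not given. Its relative ccne1 had 20.4, 16.4 and 17.3 CPM in morphants and 14.7, 15.4 and 17.1 CPM in controls, with an overlap. The kinase cdk2 had 85.1, 34.9 and 60.2 CPM in morphants and 45.7, 45 and 54.0 CPM in controls. Its mitotic counterpart cdk1 had 299.0, 140.3 and 227.0 CPM in morphants and 170.2, 194.5 and 210.8 CPM in controls. Both kinases were above all controls in morphants 1 and 3 and below them in morphant 2, and the ratio of cdk1 to cdk2 in FPKM was 4.71, 5.39 and 5.05 in morphants and 5.0, 5.80 and 5.23 in controls.

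In CPM, the mitotic cyclins differed by less than 2-fold between morphants 1 and 2. The A-type cyclin ccna2 had 138.3, 138.6 and 124.3 CPM in morphants and 142.6, 133.6 and 149.1 CPM in controls. For ccnb1, with the highest FPKM of the cyclins, the values were 510.2, 368.5 and 423.7 CPM in morphants and 355.9, 351.4 and 386.7 CPM in controls, and on library sizes without TMM all morphants were above all controls. Its relatives overlapped, with ccnb2 at 27.6 to 36.4 CPM in morphants and 27.8 to 31.2 CPM in controls, and ccnb3 at 24.6 to 38.0 CPM in morphants and 18.3 to 26.3 CPM in controls. The log2 fold changes of these cyclins ran from −0.08 for ccna2 to 0.42 for ccnb3 (SE 0.23 and 0.29, adjusted p = 0.90 and 0.64), and without morphant 1 that of ccnb3 was 0.23. The phosphatase cdc25b, which activates cdk1, had 119.3, 70.8 and 103.0 CPM in morphants and 106.5, 108.6 and 144.8 CPM in controls (log2 fold change −0.30, SE 0.29, adjusted p = 0.71).

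Over the 44 rows, the groups did not overlap for 5 genes, 2 with all morphants above (ccne2 and cdc20) and 3 with all morphants below (mcm7, cdk4 and ccnd2a). That is 11.4% of the members, beside 17.0% of all tested genes, and by direction 7.77% of all tested genes lay above and 9.18% below. A share under that of all genes is no result about the members. Without morphant 2, 27 rows did not overlap, 13 above and 14 below, or 61.4% beside 52.5% of all genes tested then. On library sizes without TMM cdc20 overlapped and cdc6, ccnb1, cdc25b and cdca8 did not, which gave 3 genes above and 5 below. The share of all tested genes was not computed on that scale, so this count is no result about the members. These counts without morphant 2 and on other scales were added after seeing the data.

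**Figure D4:**
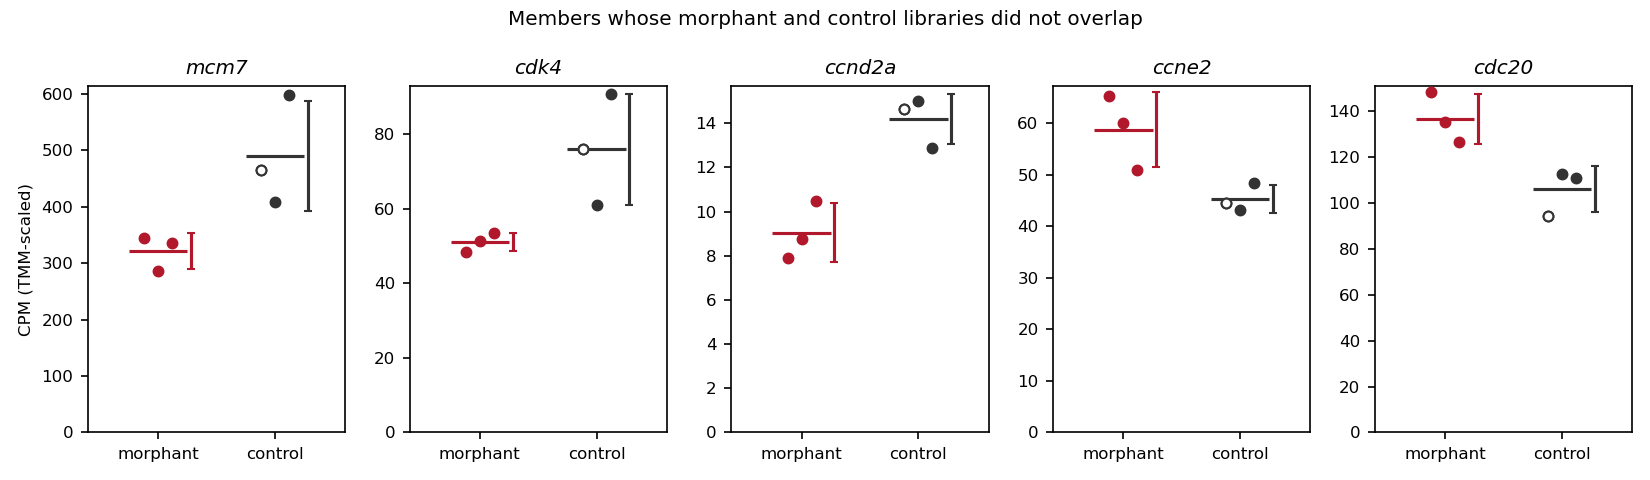
TMM-scaled CPM of the 5 members whose groups did not overlap, morphants in red left of controls in black, with the scrambled control as an open circle. Horizontal lines are means and vertical bars are SDs over 3 libraries. For mcm7, cdk4 and ccnd2a all morphants lie below all controls, and for ccne2 and cdc20 all lie above, with the closest approach for ccne2 at 50.9 and 48.4 CPM.

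Mitotic genes held the members with the highest fold changes, and these rested on morphant 2. The gene mki67 (ENSDARG00000091150), whose product Ki-67 coats mitotic chromosomes and marks dividing cells, had 68.0, 1210 and 205.7 CPM in morphants and 130.0, 238.4 and 102.5 CPM in controls. Morphant 2 was 7.71-fold above the control mean, and the other morphants lay below or within the controls. Its log2 fold change was 1.66 (SE 0.91, edgeR BH-adjusted p = 0.58) and −0.21 without morphant 2. The topoisomerase gene top2a (ENSDARG00000024488), needed to untangle sister chromosomes, had 16.0, 272.0 and 45 CPM in morphants and 41.9, 62.2 and 44.5 CPM in controls (1.17, SE 0.86, and −0.71 without morphant 2). The spindle motor kif11 (ENSDARG00000010948) had 38.0, 249.5 and 54.1 CPM in morphants and 46.6, 71.5 and 39.1 CPM in controls (1.12, SE 0.67, and −0.20 without morphant 2). Among controls these 3 genes were highest in control 2. With the length trend of each library removed, the fold changes of mki67, top2a and kif11 were 1.30, 0.95 and 1.0, against 1.66, 1.17 and 1.12 before. With that trend kept, morphant 2 lay at 3.04, 2.47 and 2.29 from the control mean on the log2 scale, and morphant 1 at −1.11, −1.58 and −0.41. Where single libraries lay without the trend is not given.

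Genes of the spindle checkpoint were divided. The checkpoint kinase ttk had 12.7, 50.5 and 14.2 CPM in morphants and 15.6, 17.8 and 18.5 CPM in controls. A second kinase, bub1 (ENSDARG00000077029), had 14.5, 77.7 and 19.3 CPM in morphants and 45.5, 28.8 and 57.6 CPM in controls (log2 fold change −0.24, SE 0.62, edgeR BH-adjusted p = 0.89). Without morphant 2 it was lower past the threshold, at −1.40 (adjusted p = 0.039), which with pole made 2 members called in that fit, beside 8.46% of all genes. Their partner bub1bb had 38.2, 38.7 and 32.5 CPM in morphants and 31.7, 32.8 and 36.3 CPM in controls, with none of that spread in CPM. With the length trend removed, the log2 fold change of bub1bb was 0.30, against 0.12 before, and its spread then is not given. The checkpoint protein gene mad2l1 had 91.0, 30.4 and 57.7 CPM in morphants and 38.6, 44.6 and 44.3 CPM in controls. The target of the checkpoint, cdc20 (ENSDARG00000100741), which activates the anaphase-promoting complex, had 148.2, 135.2 and 126.3 CPM in morphants, against 94.4, 112.5 and 111.0 CPM in controls. It was above all controls in every morphant (log2 fold change 0.37, SE 0.24, edgeR BH-adjusted p = 0.62) and was positive in all 18 alternatives, from 0.27 to 0.52.

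The chromosomal passenger complex, which corrects faulty chromosome attachment, is represented by aurkb, birc5a and cdca8. The kinase aurkb had 146.1, 124.8 and 113.3 CPM in morphants and 120.6, 132.8 and 141.8 CPM in controls. The survivin gene birc5a had 226.6, 70.2 and 140.5 CPM in morphants and 85.5, 112.1 and 111.9 CPM in controls, so that morphant 2 lay under every control and the other morphants over every control. Borealin, encoded by cdca8, had 70.1, 39.1 and 47.2 CPM in morphants and 27.5, 39.8 and 35.9 CPM in controls (log2 fold change 0.60, SE 0.31, adjusted p = 0.57), so that only control 2 reached the morphants. Without morphant 1 its fold change was 0.33 and that of birc5a 0.04, against 0.50 with every library. The kinases plk1 and aurka, which act on centrosomes and the spindle, overlapped, with plk1 at 227.2 to 301.5 CPM in morphants and 202.7 to 242.3 CPM in controls and aurka at 30.4 to 38.9 CPM in morphants and 29.8 to 38.5 CPM in controls.

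Gene length differed between both orders. The relative length of a gene, derived from counts and FPKM with the median gene at about 1, had a median of 1.48 in the 15 rows highest in morphant 2 and lowest in morphant 1, and of 0.677 in the 11 rows with the reverse order. Across the 44 rows the Spearman correlation of length with the difference from the control mean was −0.49, 0.64 and −0.23 in morphants 1, 2 and 3 and 0.05, 0.08 and −0.28 in controls 1, 2 and 3. Across all tested genes with a length it was −0.39, 0.34 and −0.26 in morphants and 0.23, −0.13 and −0.08 in controls. Points share a library, its depth and its length trend, so these are descriptions. Whether length has a part in the order was not tested. Of rows of nearly equal length, chosen here after their values were seen, cdt1, at 0.976, was highest in morphant 2, while the rrm2 rows, at 0.975 and 0.982, and gmnn, at 0.996, were lowest there. The long genes ccna2 (2.20), bub1bb (2.44) and ccnd1 (2.66), likewise chosen, lay within 0.20 of the control mean in morphants 1 and 2 on the log2 scale. With the trend removed their fold changes were 0.08, 0.30 and 0.18, against −0.08, 0.12 and 0.0 before. Rows picked by their values cannot test whether length has a part. With the length trend removed, the medians were 0.10 for replication, 0.13 for cyclins and kinases and 0.33 for mitosis, beside 0.10 for all genes. The fold changes of mcm2, orc6, gins1 and cdk1 were then 0.18, 0.30, 0.06 and 0.07, against 0.31, 0.18, 0.26 and 0.21 before. These rows were chosen after their values were seen. Which rows kept their order with the trend removed is not given.

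**Figure D5:**
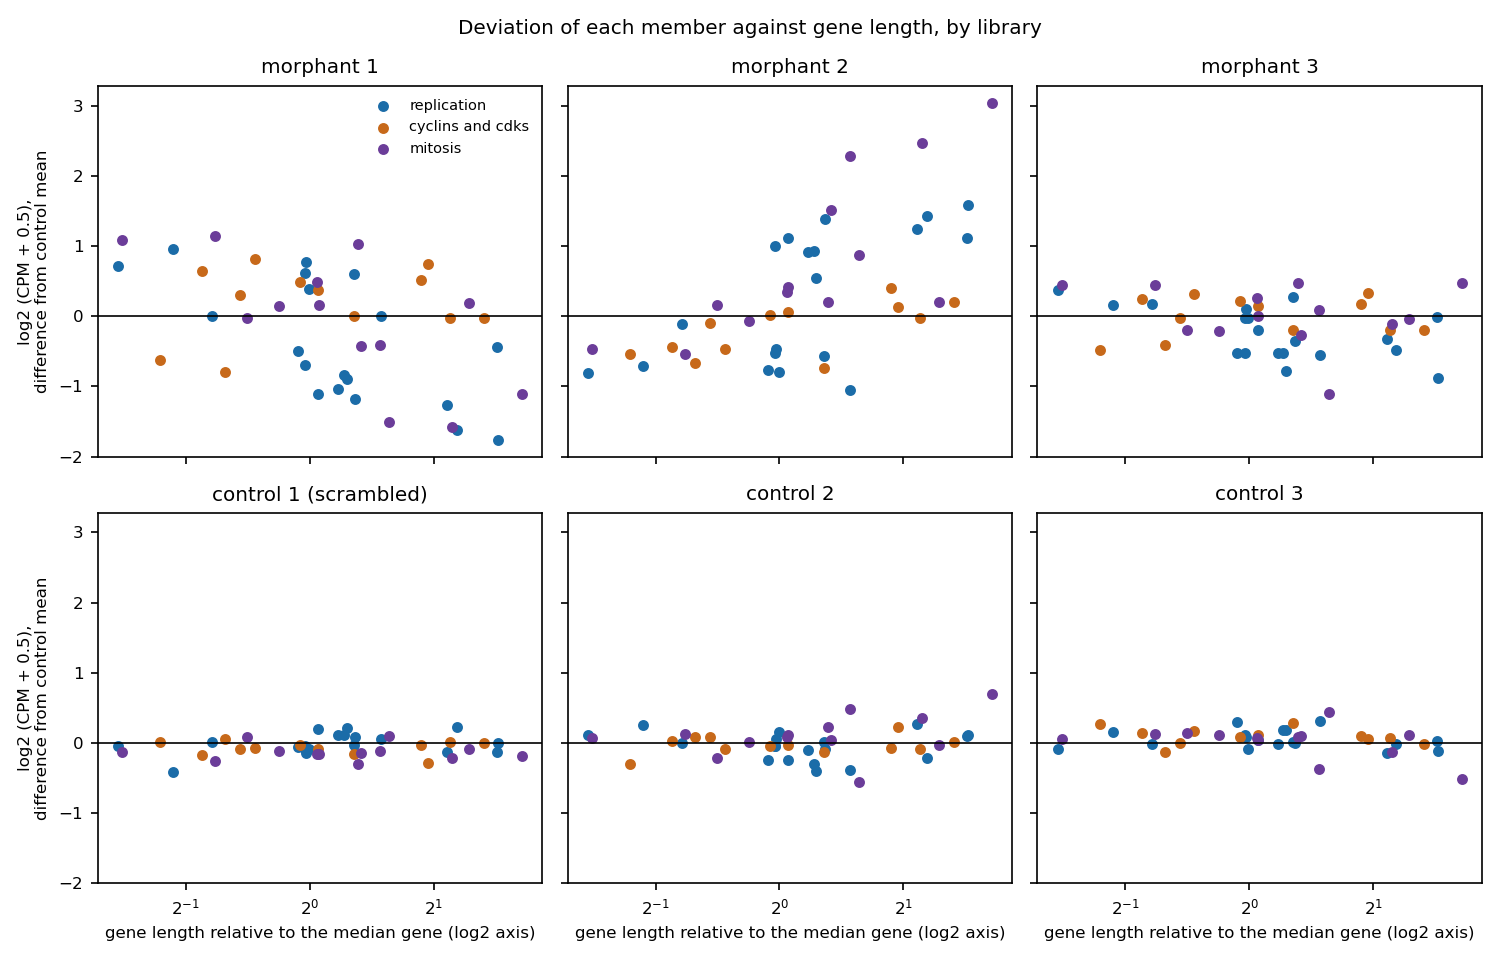
Difference of each member from the control mean on the log2(CPM + 0.5) scale against its relative gene length (log2 axis), by library, morphants above controls, coloured by role. Longer members lie higher in morphant 2 (Spearman 0.64) and lower in morphant 1 (−0.49). The controls centre on 0 because the difference is taken from their own mean.

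Per gene length, the members spanned a wide range. The highest were the rrm2 row ENSDARG00000078069, at 416.8 ± 166.6 FPKM in morphants and 389.8 ± 19.8 FPKM in controls (SD, n = 3 each), the other rrm2 row, at 301.2 FPKM in morphants and 258.0 FPKM in controls, and pcna, at 295.2 ± 35.0 FPKM in morphants and 289.2 ± 6.09 FPKM in controls. The lowest were pole, at 2.10 ± 2.5 FPKM in morphants and 1.66 ± 0.138 FPKM in controls, and orc1, at 2.25 ± 1.31 FPKM in morphants and 1.74 ± 0.128 FPKM in controls. The 44 rows together took 0.543%, 0.805% and 0.541% of all counts in morphants 1, 2 and 3 and 0.578%, 0.614% and 0.583% in controls 1, 2 and 3. In CPM the mitotic rows summed to 1155, 2639 and 1113 in morphants and 917.5 to 1166 in controls, and the cyclins and kinases to 1533 to 1869 in morphants and 1531 to 1678 in controls.

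Further genes of the same pathways were taken as 5 lists, and by edgeR 0 of their tested rows passed, against 0.0281% of all tested genes. DESeq2 called 1, tfdp2, against 1.56% of the genes it gave an adjusted p. Unadjusted p-values under 0.05 were found for 1 of 46 rows of replication and S phase, 1 of 20 of E2F, Rb and DREAM factors, 4 of 23 of kinase inhibitors and cell cycle exit, 2 of 19 of other cyclins and kinases and 0 of 62 of mitosis and cytokinesis, beside 9.66% of all tested genes. In the same order, the groups did not overlap for 4.35%, 5.0%, 8.70%, 5.26% and 3.23% of the rows, beside 17.0% of all tested genes. The genes named below have the smallest p of their list, so a lack of overlap in them follows in part from that choice. The list medians were 0.19, −0.25, 0.27, 0.03 and 0.48 in the same order, beside 0.12 for all tested genes. Without morphant 2 they were −0.04, −0.41, 0.56, 0.16 and −0.22, beside −0.04 for all tested genes. Without morphant 1 they were 0.17, −0.23, −0.05, −0.07 and 0.56, beside 0.05. The sign of 4 of the 5 thus turned with 1 library, and that of the E2F, Rb and DREAM factors did not. The sign of the median over all tested genes also turned without morphant 2, so a turn alone is no trait of a list. The E2F partner tfdp2, which with E2F switches on genes of DNA synthesis, had 20.6, 24.9 and 21.1 CPM in morphants, against 53.1, 40.9 and 53.6 CPM in controls. All morphants lay below all controls (log2 fold change −1.15, SE 0.26, adjusted p = 0.22 by edgeR and 0.021 by DESeq2). The groups overlapped for mybl2b, a transcription factor of late cell cycle genes (−0.53, SE 0.29), and for e2f5, a repressor of the E2F family (−0.61, SE 0.34).

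Of the kinase list, ccnd2b, the paralogue of ccnd2a, had 2.43, 2.39 and 2.20 CPM in morphants, against 4.44, 6.10 and 5.18 CPM in controls (log2 fold change −1.16, SE 0.32, adjusted p = 0.31 by edgeR and 0.084 by DESeq2). The cdk4 relative cdk6 had 13.7, 25.4 and 29.6 CPM in morphants and 46.5, 28.5 and 49.0 CPM in controls (−0.85, SE 0.37, adjusted p = 0.51), and only morphant 3 reached control 2. The kinase mastl, which protects mitotic phosphorylation, had 16.2, 44.2 and 19.6 CPM in morphants and 13.2, 19.4 and 14.8 CPM in controls (0.76, SE 0.42, and 0.16 without morphant 2). In the list of inhibitors and exit, hexim1, an inhibitor of the elongation kinase cdk9, had 334.5, 235.6 and 316.2 CPM in morphants, against 160.3, 139.7 and 164.6 CPM in controls (0.93, SE 0.26, adjusted p = 0.32). The growth arrest gene gadd45aa had 27.6, 11.1 and 25.1 CPM in morphants and 7.24, 14.0 and 4.01 CPM in controls (1.34, SE 0.53), and the transcription factor gene klf4 had 1.12, 2.54 and 1.80 CPM in morphants and 4.30, 3.99 and 3.03 CPM in controls (−1.03, SE 0.40). Groups did not overlap for hexim1 and klf4, and they did for gadd45aa. These genes were picked by their small p, so this is no result about the list.

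In the replication list the origin subunit orc5 had 4.86, 4.66 and 6.12 CPM in morphants, against 2.37, 2.80 and 2.69 CPM in controls, and all morphants lay above (log2 fold change 0.99, SE 0.31, edgeR BH-adjusted p = 0.38). The polymerase epsilon subunit pole2 (−0.56, SE 0.29) and rnaseh2a, which removes RNA from DNA (0.55, SE 0.30, and 0.27 without morphant 1), had overlapping groups. In the mitosis list the kinetochore motor cenpe had 9.66, 289.9 and 27.9 CPM in morphants and 21.3, 38.1 and 19.9 CPM in controls (2.05, SE 1.06, adjusted p = 0.57, and −0.50 without morphant 2). The spindle gene hmmr had 4.80, 66.9 and 9.96 CPM in morphants and 6.66, 11.2 and 7.99 CPM in controls, the order of mki67 and top2a (1.66, and −0.23 without morphant 2). The third, cenph, of the inner kinetochore, had 16.0, 7.71 and 10.7 CPM in morphants and 6.32, 8.46 and 5.06 CPM in controls (0.79, SE 0.37, and 0.48 without morphant 1).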

How the data were processed

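The deposited table holds raw counts per Ensembl gene, 1 column per library, for 32520 genes, and a second deposited table holds FPKM values for the same genes. Per the submitters' processing notes, STAR 2.7.10a, DESeq2 1.38.3 and the build GRCz11 were used, with no roles given. How reads were assigned to genes, strand included, is not given in the sources used here, so genes that overlap or share sequence are uncertain. The authors' FPKM values equal counts divided by a gene length and 1 scale per library, as was checked on 13495 genes (largest relative departure 7.11e-15), and relative length was taken from that ratio. Libraries were strand-specific and made from polyadenylated RNA, per the labels.

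Genes kept by edgeR's filterByExpr (17803) were scaled by TMM and tested with edgeR 4.0.16 (R 4.3.3, quasi-likelihood, group as the only term, two-sided), with Benjamini-Hochberg adjustment over all tested genes and a threshold of 0.05. The SE is the size of the log2 fold change divided by the square root of F. Differences from the control mean use log2(CPM + 0.5). Values with the length trend removed come from the fit, and levels of single libraries without that trend are not given. Alternatives were a replicate block, other scalings and filters, DESeq2 1.42.0, limma-trend (3.58.1) on log2(FPKM + 1) and log2(FPKM + 0.1) for genes with an FPKM of at least 1 in 3 libraries, each kind of control alone, removal of a lowess length trend (span 0.3), and each library left out. The fit was tested on simulated counts. The members and lists were chosen with earlier results of these data known. All members are named, and of each further list the 3 tested genes with the smallest unadjusted p. Figures were drawn with matplotlib 3.10.9. Each member had at least 44 counts in every library.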

Additional observations from a re-analysis of the deposited data

How the results depend on the processing

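Of 792 member values over 18 alternatives, 692 kept their sign and their side of the threshold, 98 changed sign and 2 passed the threshold without a change of sign, and 14 of the 44 rows never changed sign. The number of all genes called, 5, was 0 with a replicate block, 1 with library-size scaling, 28 with no filter, 334 by DESeq2, 11 and 12 on log2(FPKM + 1) and log2(FPKM + 0.1), 0 with the scrambled or the non-injected controls alone, 20 with the length trend removed and 1027 with morphant 2 left out as well, and ran from 0 to 1534 with each library left out (1534 without morphant 2). Members called were 1 of 44 (bub1) with the length trend removed without morphant 2, beside 1027 of 17847 tested genes. With each library left out they were 0 to 2, and the 2 without morphant 2 stand beside 8.46% of all genes. With the length trend and morphant 2 removed, the further lists of replication, E2F factors, inhibitors and mitosis had 1, 1, 3 and 1 calls. These stand beside the same 1027 of 17847 genes. DESeq2 gave 1 for E2F factors, beside 1.56% of the genes it gave an adjusted p. Leaving out libraries gave 0 to 2, 0 to 1, 0 to 3 and 0 to 2, and 0 to 1 for other cyclins and kinases, beside 0 to 1534 of all genes. The replication median was −0.10 with the block, −0.06 and −0.09 on log2(FPKM + 1) and log2(FPKM + 0.1), −0.45 with the length trend and morphant 2 removed, and −0.55 to 0.29 with each library left out. The cyclin and kinase median ran from −0.04 to 0.18 with each library left out. The mitotic median was 0.26 with the block, 0.30 and 0.27 on the FPKM scales, 0.15 with the length trend and morphant 2 removed, and −0.04 to 0.52 with each library left out. Where no single library is named as the cause, the cause was not tested.

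Signs also turned as follows. With the replicate block, ccnd1 was −0.01, cdt1 −0.10, mcm2 −0.25, mcm4 −0.17, mcm5 −0.08, mcm6 −0.07, pola1 −0.13, pole −0.43 and rrm1 −0.23. On log2(FPKM + 1), ccnd1 was −0.01, cdt1 −0.07, mcm2 −0.17, mcm4 −0.13, mcm5 −0.06, mcm6 −0.03, pola1 −0.05, pole −0.07 and rrm1 −0.21. On log2(FPKM + 0.1), ccnd1 was −0.01, cdt1 −0.09, mcm2 −0.23, mcm4 −0.14, mcm5 −0.07, mcm6 −0.05, pola1 −0.12, pole −0.34 and rrm1 −0.22. With library-size scaling, ccnb2 was −0.04, ccnd1 −0.07, pcna −0.06 and rrm2 (ENSDARG00000078069) −0.05. The value of ccnd1 was also −0.01 by DESeq2, with median-of-ratios factors and with no filter, −0.02 with the stricter filter and −0.004 with non-injected controls, where aurka was 0.01. With control 1 as the single control, whose variation was taken from the morphants, aurkb was 0.08, ccnd1 −0.01, gmnn 0.01, mcm4 −0.04 and rrm1 −0.11. With the length trend removed, ccna2 was 0.08, ccnb2 −0.01, pcna −0.05 and rrm1 −0.02, and without morphant 2 as well ccna2 0.25, ccnb2 −0.03, cdc25b 0.07, cdt1 −0.61, gmnn 0.23, mcm2 −0.63, mcm4 −0.54, mcm5 −0.53, mcm6 −0.54, pcna −0.13, pola1 −0.45, pole −0.92, rrm1 −0.64, top2a −0.41 and ttk −0.17.

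With each library left out, signs turned within −0.98 to 0.77 for mcm2, −0.88 to 0.0038 for mcm3, −0.71 to 0.37 for mcm4, −0.62 to 0.59 for mcm5, −0.73 to 0.77 for mcm6, −0.24 to 0.68 for orc1, −0.08 to 0.43 for orc6, −0.65 to 0.44 for cdt1, −0.36 to 0.18 for gmnn, −0.24 to 0.57 for gins1, −0.09 to 0.56 for gins2, −0.04 to 0.08 for pcna, −0.77 to 0.66 for pola1, −1.35 to 0.85 for pole, −0.78 to 0.36 for rrm1, −0.15 to 0.45 and −0.24 to 0.31 for rrm2 (ENSDARG00000020711 and ENSDARG00000078069), −0.06 to 0.12 for ccnb2, −0.13 to 0.09 for ccnd1, −0.06 to 0.43 for cdk1, −0.01 to 0.57 for cdk2, −0.14 to 0.06 for aurka, −0.14 to 0.04 for aurkb, −1.40 to 0.14 for bub1, −0.71 to 1.68 for top2a, −0.21 to 2.18 for mki67, −0.20 to 1.54 for kif11 and −0.38 to 0.91 for ttk. Whether libraries of the same number share a clutch or batch is not given. Deviations of same-numbered morphants and controls correlated at −0.29, −0.10 and 0.16. That cannot decide the question, since the deviations within each group are bound to sum to 0. The replicate block, which called 0 genes, thus pairs libraries by number alone.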

Other observations

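Of the 5 further lists, those of mitosis and of kinase inhibitors were highest in different morphants. Of 62 tested rows of mitosis and cytokinesis, 47 were highest of the 6 libraries in morphant 2, or 75.8% beside 30.9% of all tested genes, and the list summed to 2502, 5540 and 2436 CPM in morphants 1, 2 and 3 and 2476 to 2713 CPM in controls. Of 23 tested rows of kinase inhibitors and cell cycle exit, 17 were highest in morphant 1 and 0 in morphant 2, or 73.9% beside 32.1% of all tested genes in morphant 1. That list summed to 7386, 3412 and 5719 CPM in morphants 1, 2 and 3 and 4070 to 4908 CPM in controls. In the mitosis list, length correlated with the difference from the control mean at −0.63 in morphant 1 and 0.64 in morphant 2 (Spearman). In the inhibitor list it did so at −0.09 and 0.05. A correlation within a list does not show how its genes compare in length with all other genes. Whether length has a part in these orders was not tested, and each order rests on 1 library. Of the inhibitor list, ccng1, chosen after its values were seen, had 1655, 1097 and 1052 CPM in morphants and 1134, 613.5 and 667.1 CPM in controls. The scrambled control lay above the controls that were not injected. The log2 fold change of ccng1 was 0.66 (SE 0.34, edgeR BH-adjusted p = 0.57), and 0.42 without morphant 1. From the same list cdkn1a, likewise chosen, had 15.3, 16.8 and 21.5 CPM in morphants and 23.8, 16.6 and 12.3 CPM in controls (0.03, SE 0.33).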
